A study of Mus musculus with 4 samples.

Results

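Immediate early transcription factors belong to a class of genes whose mRNA typically appears within minutes of a stimulus. The 10 genes described here are Fos, Fosb, Fosl1, Jun, Junb, Egr1, Egr2, Atf3, Ier2 and Nr4a1. They were taken by symbol from the GENCODE M21 annotation (GRCm38), and all 10 were found among the 55573 genes of the deposited files. RNA sequencing was done on primary fibroblasts from mouse embryos (MEFs), which are cultured for a limited time and are not an established line. All cultures received the Smoothened agonist SAG, which activates Hedgehog signalling, at 100 nM for 24 h, and none without SAG was analysed here. The 4 groups of 1 library each were Dyrk2-KO cells, WT cells with an siRNA against Dyrk2 (siDyrk2), WT cells with a negative-control siRNA (siNeg) and WT cells without siRNA. Dyrk2 encodes the protein kinase whose role in Hedgehog signalling the series addresses. The labels do not give the knockout allele, the embryos behind each culture or the time of transfection.

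Immediate early genes are transcribed from promoters that are held ready and need no new protein synthesis. Growth factors, cell stress and depolarisation reach them through ERK, JNK and p38 kinases, which act on SRF with its ELK partners and on CREB and ATF proteins. FOS and JUN family proteins pair through leucine zippers to form AP-1. EGR proteins bind GC-rich sites through zinc fingers, and NR4A1 is an orphan nuclear receptor. In fibroblasts the textbook stimulus is serum returned to starved cells, and the mRNAs decay fast once the stimulus ends.

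Each group had 1 library, so no difference below has a replicate check and no test was made. Depth was estimated as 21.9 M fragments (M, 1e+06) for KO cells, 21.5 M with siDyrk2, 19.98 M with siNeg and 23.9 M for WT cells. Intervals are 95% counting intervals on estimated fragments and say nothing of differences between cultures. Dyrk2 was at 0.57 FPKM (fragment counts divided by exonic kilobases and by the library total in units of 1e+06) in KO cells against 6.59 in WT cells, and at 0.81 with siDyrk2 against 7.06 with siNeg. All 11 fibroblast markers were above 20 FPKM in every library, from 24.5 to 3276 FPKM. In bulk samples fewer cells of a type and less RNA per cell cannot be told apart. The endothelial, epithelial and skeletal muscle lists summed to 2.34 to 7.91 FPKM per library. Mitochondrial transcripts took 1.05% to 1.19% of fragments.

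The promoters of 7 of the 10 genes could be read from RefSeq (GRCm38.p6), and the sequences below are the 120 bases before RefSeq's gene start, 5′ to 3′ on the gene's own strand. For Atf3 and Nr4a1 that start lies inside the longer GENCODE M21 gene, so these windows precede an internal start and not the outermost one. They are shown because the genes share a transcriptional class but differed in how far they moved between libraries. Capitals mark the CRE half-site TGACG on either strand (CGTCA when reversed), to which CREB and ATF proteins bind, and the TATA box TATAAA. Atf3, Nr4a1 and Fos were among the genes that differed most between siNeg and wild type, Jun differed too, and Junb hardly did.
Fos (chr12:85473770-85473889, plus strand): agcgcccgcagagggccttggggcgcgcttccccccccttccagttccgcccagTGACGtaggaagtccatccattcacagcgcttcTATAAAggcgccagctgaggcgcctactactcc
Atf3 (chr1:191183334-191183453, minus strand): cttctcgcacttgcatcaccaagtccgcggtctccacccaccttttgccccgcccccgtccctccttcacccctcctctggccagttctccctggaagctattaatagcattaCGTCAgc
Nr4a1 (chr15:101266726-101266845, plus strand): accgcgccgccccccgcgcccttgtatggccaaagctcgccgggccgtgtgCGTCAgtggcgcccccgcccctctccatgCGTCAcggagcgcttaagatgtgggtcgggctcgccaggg
Jun (chr4:95052223-95052342, minus strand): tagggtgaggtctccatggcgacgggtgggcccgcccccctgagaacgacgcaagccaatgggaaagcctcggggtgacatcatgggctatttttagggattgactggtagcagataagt
Junb (chr8:84978749-84978868, minus strand): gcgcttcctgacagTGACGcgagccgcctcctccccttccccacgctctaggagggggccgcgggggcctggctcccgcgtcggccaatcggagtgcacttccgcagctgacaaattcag

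Over the full 250 bases upstream, searched on both strands, the half-site TGACG was found in 6 of the 7 genes, which were Fos, Fosb, Junb, Egr2, Atf3 and Nr4a1. It was present in 17.8% of all 32851 gene starts in the table. The half-site was added to the motif set after the sequences had been seen, and Egr2 entered with 5 alternative starts of the 11 in all. The whole CRE TGACGTCA, which contains the half-site, was found in 0 of the 7 genes and in 1.55% of all starts. The CArG box, the SRF site, was found only before Egr2 among the 7, against 1.47% of all starts. The AP-1 site TGANTCA was found in 0 of the 7 and in 6.75% of all starts. The EGR site GCGNGGGCG preceded Fosb and Nr4a1 and 4.70% of all starts, TATAAA preceded Fos and 12.4% of all starts, and the GLI site GACCACCCA preceded 0 of the 7 and 0.225% of all starts. A match describes letters in this window only.

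The 10 genes were compact. In GENCODE M21 their principal transcripts had 1 exon in Jun, Junb and Ier2, 2 in Egr1 and Egr2, 4 in Fos, Fosb, Fosl1 and Atf3 and 8 in Nr4a1, against a median of 9 over 11127 measured protein-coding genes. All but Atf3, which spans 47744 bases, were shorter than the median gene span of 24452 bases. The pentamer ATTTA, the core of AU-rich elements that speed mRNA decay, was denser in the 3′ UTR of 8 of the 10 than in the median gene, which had 1.40 per kilobase over 10605 genes. It reached 5.52 per kilobase in Nr4a1, 4.91 in Fos and 4.12 in Junb, and Ier2 had none. Of the 10, Fos alone held the nonamer TTATTTATT, in capitals in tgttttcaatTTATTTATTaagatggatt, which 7.69% of the same genes held in their 3′ UTR.

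Jun, whose protein is the main activating partner in AP-1, had the highest level of the 10. The gene (ENSMUSG00000052684) lies on chromosome 4 at 95049034 to 95052222. It was at 41.43 FPKM in KO cells, 26.02 with siDyrk2, 24.23 with siNeg and 38.58 in WT cells. The untransfected libraries thus stood well above the transfected ones, and within each pair the distance was small. Junb (ENSMUSG00000052837, chromosome 8 at 84974484 to 84978718), a JUN protein with weaker activating capacity, was at 11.29, 11.35, 10.27 and 10.97 FPKM in the same order. No neighbouring pair of its 4 levels differed beyond the counting interval.

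Egr1 (ENSMUSG00000038418, chromosome 18 at 34859823 to 34864984), a zinc finger factor and classic serum-response gene, was at 21.68 FPKM in KO cells, 16.57 with siDyrk2, 13.24 with siNeg and 20.47 in WT cells. Its knockout and wild-type levels did not differ beyond counting error, and the other steps did. Its relative Egr2 (ENSMUSG00000037868, chromosome 10 at 67535475 to 67542188), known for its role in Schwann cells and hindbrain, was listed at 0 in all 4 libraries. A count of 0 allows up to 0.0404 FPKM in KO cells, 0.0411 with siDyrk2, 0.0442 with siNeg and 0.0369 in WT cells, taking 3 fragments as the limit.

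Fos (ENSMUSG00000021250, chromosome 12 at 85473890 to 85477273), the prototype of the class, was at 4.45 FPKM in KO cells, 2.87 with siDyrk2, 2.15 with siNeg and 3.87 in WT cells. These are 229, 145, 101 and 218 fragments. Fosl1 (ENSMUSG00000024912, chromosome 19 at 5447547 to 5455946), which encodes FRA1, a FOS protein without the activation domain of FOS, was at 5.17, 2.08, 1.43 and 3.12 FPKM in the same order. All 3 steps of Fosl1 exceeded the counting interval, and its highest level was 3.62 times its lowest. Of the exonic bases of Fosl1, 57.2% overlap Ccdc85b on the other strand, and whether strand was used in counting is not given in the sources used here. Ccdc85b was itself at 3.71 FPKM in KO cells, 3.01 with siDyrk2, 2.68 with siNeg and 3.21 in WT cells, the same order as Fosl1. Its part in the Fosl1 values was not tested.

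Fosb (ENSMUSG00000003545, chromosome 7 at 19302696 to 19310051), which gives rise to a long-lived truncated form in neurons, was below 1 FPKM in all libraries. It was at 0.54 FPKM in KO cells, 0.31 with siDyrk2, 0.17 with siNeg and 0.42 in WT cells, or 74, 42, 21 and 63 fragments. The order was that of Fos, and the step between siDyrk2 and siNeg was the one that exceeded counting error.

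Atf3 (ENSMUSG00000026628, chromosome 1 at 191170296 to 191218039), a repressor of the ATF/CREB family that stress signals induce, was at 11.08 FPKM in KO cells, 4.99 with siDyrk2, 3.56 with siNeg and 6.77 in WT cells. Nr4a1 (ENSMUSG00000023034, chromosome 15 at 101254269 to 101274795), the nuclear receptor also called Nur77, was at 7.93, 4.87, 3.27 and 6.00 FPKM in the same order. For both genes each of the 3 steps exceeded the counting interval. Ier2 (ENSMUSG00000053560, chromosome 8 at 84661331 to 84662852), a small nuclear protein of the early growth response, went against this order. It was at 18.93 FPKM in KO cells, 15.95 with siDyrk2, 20.23 with siNeg and 20.24 in WT cells, so that the siDyrk2 library was the low one.

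**Figure D1:**
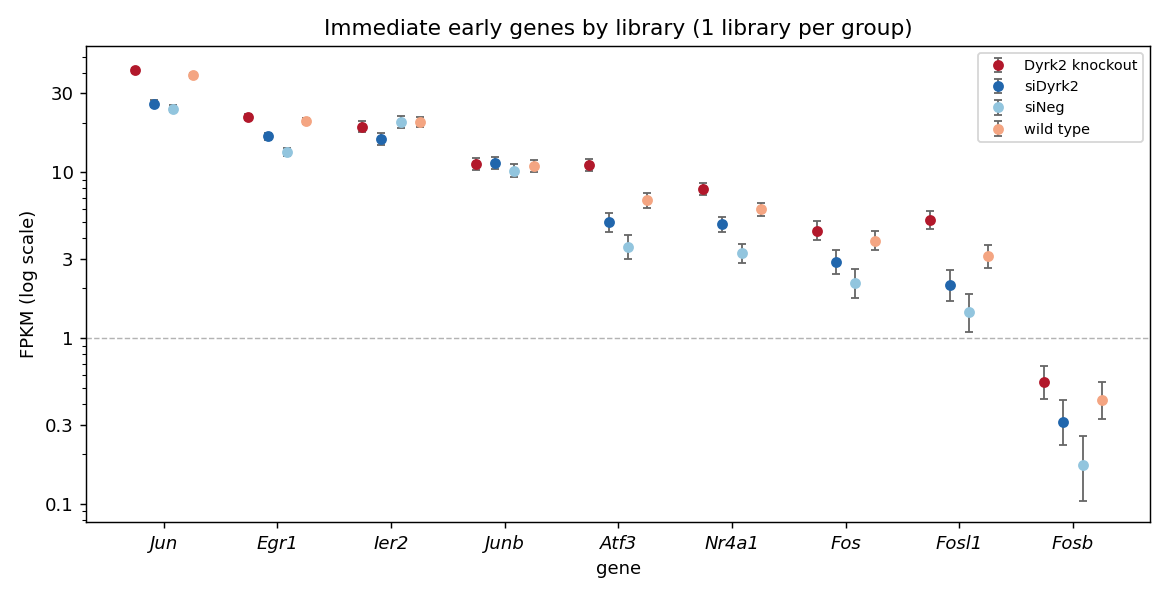
FPKM on a log axis for the 9 genes above 0, in the KO, siDyrk2, siNeg and WT libraries from left to right within each gene. Bars are 95% Poisson counting intervals of 1 library each, and the dashed line is 1 FPKM; in 7 genes KO is highest, WT next, siDyrk2 below it and siNeg lowest, and Junb and Ier2 depart from this.

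Of the 9 genes above 0, 7 had the order knockout, wild type, siDyrk2, siNeg from high to low, and 6 of these were among the 8 that reached 1 FPKM in at least 1 library. Of all 12817 genes that reached 1 FPKM in a library, 6.84% had this order. Fosb and Egr2 did not reach that level and are left out of the medians and counts below. The files were scaled library by library to their own total of fragments, which bears on any order set across them.

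The knockout comparison asked what lasting loss of Dyrk2 did to these genes in SAG-treated cells. Atf3 and Fosl1 were higher in KO cells by similar amounts, Nr4a1 by less, and the AP-1 and EGR genes of higher level were close to wild type. Atf3 was 1.64-fold higher (1.43 to 1.88), Fosl1 1.66-fold (1.34 to 2.05) and Nr4a1 1.32-fold (1.17 to 1.49). Jun was 1.07-fold higher (1.02 to 1.13). The intervals of Fos (1.15-fold, 0.95 to 1.39), Fosb (1.29-fold, 0.906 to 1.83), Egr1 (1.06-fold, 0.997 to 1.12), Junb (1.03-fold, 0.916 to 1.16) and Ier2 (0.935-fold, 0.840 to 1.04) included 1.

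Among the 8 measured genes 7 were higher in KO cells, as were 43.7% of all genes, and 1 was lower, as were 55.6%. The interval lay above 1 for 4 of the 8, against 19.1% of all genes, and below 1 for 0, against 26.2%. On the FPKM + 1 scale 1 gene, Atf3, was at least 1.5-fold higher, as were 2.58% of all genes. With 4.04% of all genes at least 1.5-fold lower, 0 of the 8 were. At 2-fold the counts were 0 higher and 0 lower, against 0.57% and 1.21% of all genes. The median log2 ratio of FPKM + 1 was 0.13, against -0.02 over all genes. The count of 1 became 2 under either other scaling, since Fosl1 at a log2 ratio of 0.58 lay just below the limit.

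The siRNA comparison asked what transient silencing of Dyrk2 did to the same genes. Nr4a1 was 1.49-fold higher with siDyrk2 than with siNeg (1.26 to 1.77), Fosl1 1.45-fold (1.04 to 2.07), Atf3 1.40-fold (1.14 to 1.73), Fos 1.33-fold (1.03 to 1.74) and Egr1 1.25-fold (1.16 to 1.35). Fosb was 1.82-fold higher on 42 against 21 fragments, with an interval of 1.08 to 3.31. Jun, at 1.07-fold, was the closest of these to equality, with a lower bound of 1.003. Junb was 1.11-fold higher, with an interval of 0.977 to 1.25 that included 1, and Ier2 was 1.27-fold lower (1.13 to 1.43).

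Of the 8 measured genes 7 were higher with siDyrk2 and 1 was lower, against 54.3% and 45% of all genes. The interval lay above 1 for 6, against 28.3% of all genes, and below 1 for 1, against 23.1%. None of the 8 was at least 1.5-fold different on FPKM + 1, where 3.77% of all genes were higher and 2.73% lower, nor at least 2-fold, where 0.749% and 0.796% were. The median log2 ratio was 0.30, against 0.02 over all genes, and 0.14 with a pseudocount of 5 FPKM.

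The higher values with siDyrk2 depended on which control they were set against. Against untransfected wild type the siDyrk2 library was lower in 7 of the 8 genes and higher in Junb, against 47.3% lower and 52.1% higher of all genes. The interval lay below 1 for 7, against 25.5% of all genes, and above 1 for 0, against 28.8%. Jun was 1.48-fold lower with siDyrk2 than in WT cells (1.40 to 1.57), Fosl1 1.5-fold (1.15 to 1.97) and Atf3 1.36-fold (1.14 to 1.61). The median log2 ratio was -0.33, against 0.30 with siNeg as the control. This reading was chosen after the values had been seen.

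**Figure D2:**
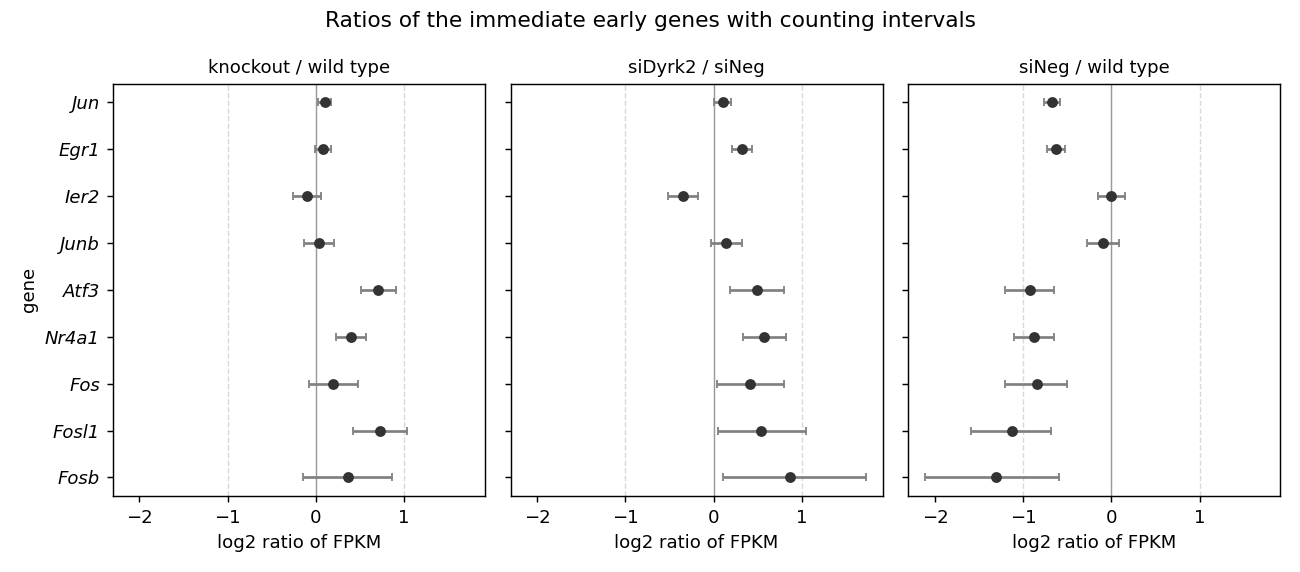
Log2 ratio of the deposited FPKM for the 9 genes above 0 in KO cells against wild type, siDyrk2 against siNeg and siNeg against wild type. Points are single ratios of 1 library to 1 library, bars are 95% counting intervals, and dashed lines mark 2-fold; the ratios of siNeg to wild type lie left of 0 for all but Ier2, which is at 0.

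The comparison of siNeg with wild type shares a library with each of the others, and its values are given side by side with theirs. Fos, Fosb, Fosl1, Jun, Egr1, Atf3 and Nr4a1 differed more here than in the knockout and siRNA comparisons, and Junb and Ier2 did not. Fosl1 was 2.18-fold lower with siNeg than in WT cells (1.61 to 3.02), Atf3 1.9-fold (1.57 to 2.32), Nr4a1 1.83-fold (1.57 to 2.16) and Fos 1.80-fold (1.42 to 2.31). Jun was 1.59-fold lower (1.5 to 1.69), on 1544 against 2944 fragments, and Egr1 1.55-fold (1.44 to 1.66). Fosb was 2.47-fold lower on 21 against 63 fragments (1.51 to 4.32). Junb (1.07-fold lower, 0.946 to 1.21) and Ier2 (20.23 against 20.24 FPKM) did not differ beyond counting error.

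In this comparison 8 of the 8 measured genes were lower with siNeg, Ier2 by only 0.01 FPKM, and 0 were higher, against 51% and 48.3% of all genes. The interval lay below 1 for 6, against 23.6% of all genes, and above 1 for 0, against 22.9%. On FPKM + 1 the same 6, Fos, Fosl1, Jun, Egr1, Atf3 and Nr4a1, were at least 1.5-fold lower, as were 2.37% of all genes, and 0 were higher, against 1.41%. At 2-fold the counts were 0 and 0, against 0.562% lower and 0.367% higher. The median log2 ratio was -0.64, against -0.01 over all genes. With a pseudocount of 5 FPKM the median was -0.37 and 0 genes were 1.5-fold lower. The siNeg and wild-type libraries differ in transfection and in culture, and these cannot be told apart.

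**Figure D3:**
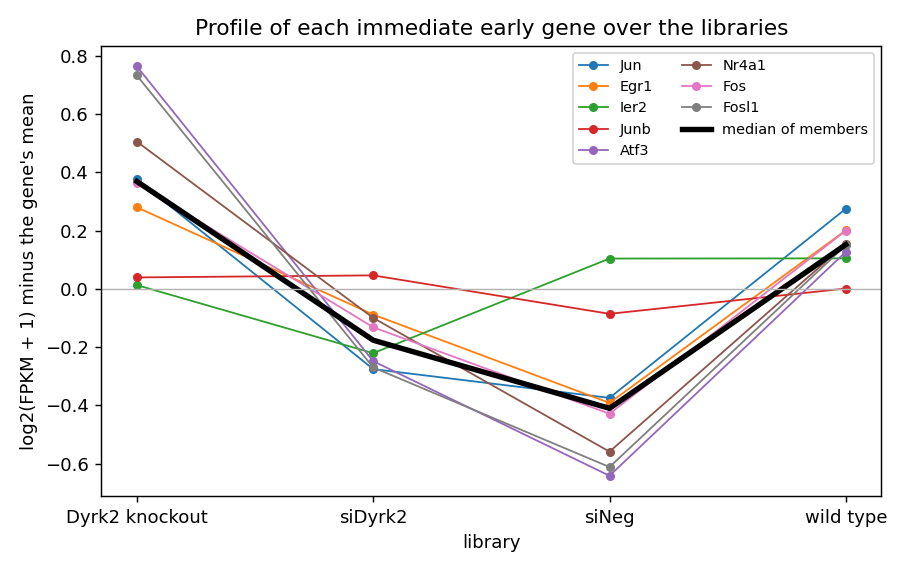
Log2(FPKM + 1) of the 8 measured genes in the 4 libraries, each minus the gene's own mean, with the median of the 8 in black; lines only join the points of a gene. The median is 0.37 in KO cells, -0.18 with siDyrk2, -0.41 with siNeg and 0.15 in WT cells, and Junb and Ier2 depart from it.

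Genes with the most similar profile were sought among 7478 other protein-coding genes of at least 5 FPKM in a library, by Euclidean distance to that median profile over the 4 libraries. They were Heca at 0.0873, Abca2 at 0.0934, Grik5 at 0.101, Uchl1 at 0.106 and Atp9a at 0.118. Heca was at 10.88 FPKM in KO cells, 6.99 with siDyrk2, 5.76 with siNeg and 8.48 in WT cells. Of the 8 genes themselves Fos was nearest, at 0.0681, and Ier2 was farthest, at 0.629. With 4 libraries many genes can lie this close.

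The composition of the AP-1 pool was set out per length. FOS family mRNA (Fos, Fosb, Fosl1 and Fosl2) summed to 24.92 FPKM in KO cells, 16.36 with siDyrk2, 18.81 with siNeg and 27.95 in WT cells. Most of it was Fosl2, which encodes FRA2 and is not among the 10: 14.76 FPKM in KO cells against 20.54 in WT cells, and 11.10 with siDyrk2 against 15.06 with siNeg. The folds of Fosl2 were 0.719 (0.687 to 0.752) in KO cells and 0.737 (0.697 to 0.779) with siDyrk2. With siNeg against WT cells the fold of Fosl2 was 0.733 (0.70 to 0.768). The cause of these folds was not tested. Fosl1 made up 20.7% of the family sum in KO cells against 11.2% in WT cells, and 12.7% with siDyrk2 against 7.60% with siNeg. JUN family mRNA (Jun, Junb and Jund) summed to 54.80 FPKM in KO cells, 38.63 with siDyrk2, 35.79 with siNeg and 51.38 in WT cells. Jun held 75.6%, 67.4%, 67.7% and 75.1% of it in that order. Jund was listed at 1.26 to 2.08 FPKM, and 52.6% of its exonic bases overlap a gene on the other strand.

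Other immediate early regulators were mixed. Of 24 genes 22 were measured. With siNeg 16 were lower than in WT cells and 6 higher, against 51% and 48.3% of all genes. The median log2 ratio was -0.13. Intervals were below 1 for 10 of the 22 and above 1 for 4, against 23.6% and 22.9% of all genes. Id2, an inhibitor of helix-loop-helix factors, was at 7.62 against 14.40 FPKM and Egr3 at 0.56 against 1.66, whereas Ier5l (16.42 against 12.21) and Id1 (18.55 against 14.16) were higher with siNeg. In the knockout 14 of the 22 were higher and 8 lower than in WT cells, against 43.7% and 55.6% of all genes. The median was 0.13, as it was for the 8 measured immediate early factors. Of the 22 genes 12 had an interval above 1, against 19.1% of all genes, and 6 had one below 1, against 26.2%. Id2 was at 20.48 against 14.40 FPKM and Zfp36l1, which binds AU-rich mRNA, at 63.03 against 46.58, and Fosl2 and Ier5l (8.98 against 12.21) were the lowest. With siDyrk2 13 were higher and 9 lower than with siNeg, close to the 54.3% and 45% of all genes. The median was 0.05. Intervals were above 1 for 10 and below 1 for 6, against 28.3% and 23.1% of all genes. Ier3, a survival gene, was at 10.25 against 6.33 FPKM and Btg1 at 13.71 against 10.01, and Ier5l at 9.29 against 16.42 and Id1 at 13.01 against 18.55 FPKM were the lowest.

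Genes of the immediate early effector list were spread on both sides. Of 22 genes 21 were measured, with medians of -0.06 in KO cells, 0.14 with siDyrk2 and -0.10 with siNeg against wild type. In the knockout 10 were higher and 11 lower, against 43.7% and 55.6% of all genes. Nfkbia, the NF-kB inhibitor, was at 17.21 against 10.02 FPKM and Arc at 3.65 against 2.01. Gadd45g was at 16.21 against 25.80 FPKM and Ctgf, which encodes a matricellular protein, at 32.42 against 47.00. With siDyrk2 15 were higher and 5 lower than with siNeg, against 54.3% and 45% of all genes, and Ptgs2 was equal at 2.68 FPKM. Dusp1, a phosphatase of MAP kinases, was at 7.60 against 4.02 FPKM and Gadd45b at 12.78 against 8.13, while Gem (5.71 against 8.56) and Plk3 (4.55 against 6.39) were lower. With siNeg 16 were lower and 5 higher than in WT cells, against 51% and 48.3% of all genes. Ptgs2, cyclooxygenase 2, was at 2.68 against 5.67 FPKM and Arc at 0.88 against 2.01, while Plk3 (6.39 against 3.98) and Ctgf (63.29 against 47.00) were higher.

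All 15 genes of the ERK feedback list, which also holds ETS factors and Lif, were measured. With siNeg 12 were higher than in WT cells, as were 48.3% of all genes, and 3 lower, with a median of 0.21. The interval was above 1 for 9, against 22.9% of all genes, and below 1 for 2, against 23.6%. Etv4, an ETS factor, was at 4.50 against 2.38 FPKM and Dusp6, a phosphatase of ERK, at 8.17 against 5.59. Dusp4 (5.33 against 7.09) and Phlda1 (6.08 against 7.26) were lower. In the knockout 12 were lower than in WT cells, as were 55.6% of all genes, and 3 higher, with a median of -0.11. The interval lay below 1 for 6 of the 15, against 26.2% of all genes, and above 1 for 1, against 19.1%. Phlda1 was at 4.69 against 7.26 FPKM and Epha2 at 2.82 against 4.22, while Spry2 was at 33.12 against 22.57 and Etv1 at 0.73 against 0.64. With siDyrk2 11 were lower than with siNeg, as were 45% of all genes, and 4 higher, with a median of -0.25. The interval was below 1 for 9, against 23.1% of all genes, and above 1 for 2, against 28.3%. Phlda1 was at 3.87 against 6.08 FPKM and Lif, a cytokine gene, at 2.94 against 4.58, and Dusp4 (7.0 against 5.33) and Spry1 (80.02 against 66.96) were the highest.

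Partners and inhibitors of AP-1 and EGR proteins had medians of 0.06, -0.10 and -0.12 over 13 measured of 16 genes for KO cells, siDyrk2 and siNeg, each against its control. Maf, a basic leucine zipper factor, was at 9.95 FPKM in KO cells against 4.46 in WT cells and was the only one at least 2-fold different. Nab1, a corepressor of EGR proteins, was at 13.05 FPKM with siDyrk2 against 24.43 with siNeg, and Nab2 at 36.54 with siNeg against 32.81 in WT cells.

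For the kinases and factors upstream of immediate early promoters the medians lay near 0, which can hold differences in both directions. Over 22 measured of 23 genes they were -0.01 in KO cells, 0.00 with siDyrk2 and 0.03 with siNeg. In that order 1, 5 and 6 genes had an interval above 1, against 19.1%, 28.3% and 22.9% of all genes. Below 1 were 4, 7 and 2, against 26.2%, 23.1% and 23.6%. Kinase activity was not measured. Srf was at 9.94 against 11.92 FPKM in KO cells and at 13.51 with siNeg against 11.92 in WT cells. Map2k4, a kinase of the JNK and p38 pathways, was low in 1 library, with 16.52 FPKM with siDyrk2 against 9.67 with siNeg, and 15.76 in KO cells against 15.89 in WT cells. Mapk3, which encodes ERK1, was among the highest ratios, at 59.61 in KO cells against 47.85 FPKM in WT cells, and was at 60.34 with siDyrk2 against 52.09 with siNeg.

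Known AP-1 targets had medians of 0.00 in KO cells, 0.29 with siDyrk2 and -0.01 with siNeg, over 16 measured of 18 genes. In the knockout 8 were higher and 8 lower, against 43.7% and 55.6% of all genes. Hmox1, heme oxygenase 1, was at 171.85 against 108.18 FPKM and the gelatinase gene Mmp9 at 3.94 against 2.50, whereas Ccnd1 (78.57 against 131.92) and Cd44 (27.06 against 45.82) were lower. With siDyrk2 12 were higher and 4 lower than with siNeg, against 54.3% and 45% of all genes. The collagenase gene Mmp13 was at 1.78 against 0.64 FPKM. With siNeg 8 were higher and 8 lower than in WT cells, against 48.3% and 51% of all genes. Mmp9 was at 0.48 against 2.50 FPKM and Hmox1 at 67.14 against 108.18, and Plau, urokinase, was at 13.96 against 9.20.

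Stress genes were examined because Atf3 also responds to the integrated stress response and to heat. All 16 genes of the integrated stress response were measured, with medians of 0.03 in KO cells, -0.00 with siDyrk2 and 0.02 with siNeg. Nupr1, a stress-induced chromatin protein, was at 40.30 against 27.36 FPKM in KO cells and at 42.24 against 32.57 with siDyrk2, and Cebpb at 46.23 against 33.18 in KO cells. Asns was at 77.74 FPKM with siNeg against 63.07 in WT cells. The 11 heat shock genes had medians of 0.03, 0.04 and -0.08. In KO cells and with siNeg against WT cells the inducible HSP70 genes Hspa1b and Hspa1a had the most extreme log2 ratios of the list (0.71 and 0.51, and -1.38 and -0.84). With siDyrk2 Hsp90aa1 had the highest (0.66), then Hspa1b (0.53), and Hspa1a was at the median. Hspa1b was at 32.59 FPKM in KO cells, 10.32 with siDyrk2, 6.86 with siNeg and 19.47 in WT cells, and Hspa1a at 7.98, 2.64, 2.53 and 5.32. Both had the order of Fos over the libraries, which 6.84% of all genes had. Hspb1, Dnajb1 and Dnaja1 had it too, as did Klf4, Id2, Arc and Hmox1 of other lists. Some of these steps lay within counting error, such as Hspa1a with siDyrk2 against siNeg (1.04-fold, 0.831 to 1.31). The near-identical sequences of Hspa1b and Hspa1a leave the split of reads between them uncertain. The part of heat shock genes in the values of the immediate early factors was not tested. Hsp90aa1 was at 74.92 FPKM with siDyrk2 against 47.10 with siNeg.

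**Figure D4:**
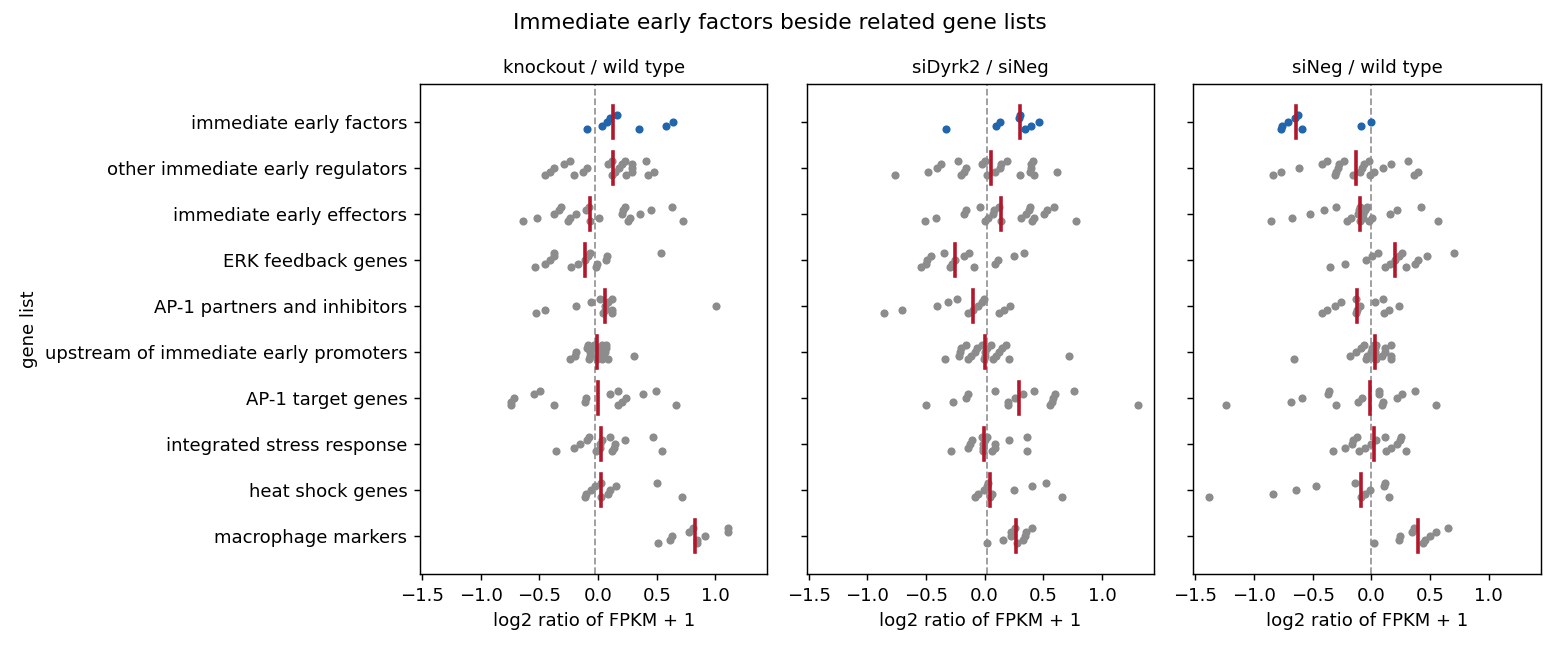
Log2 ratio of FPKM + 1 of each measured gene in the immediate early factors (blue) and 9 other lists (grey) for the knockout against wild type, siDyrk2 against siNeg and siNeg against wild type. Red bars are list medians and the dashed line is the median of all genes; for siNeg against wild type the immediate early factors have a median of -0.64 and the ERK feedback genes of 0.21.

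Macrophage genes also differed between the libraries. All 11 markers were above 0 in every library, and the defining markers Adgre1 and Csf1r were at 11.82 and 7.96 FPKM in KO cells against 6.32 and 4.00 in WT cells. The 11 markers summed to 546 FPKM in KO cells against 274 in WT cells, and to 396 with siDyrk2 against 319 with siNeg. A large part of each sum was Lyz2 alone, at 328.57, 152.06, 196.09 and 154.19 FPKM in that order. All 10 measured markers were higher in KO cells, against 43.7% of all genes, the median log2 ratio being 0.83. All 10 were higher with siDyrk2, against 54.3% of all genes, at a median of 0.26. With siNeg all 10 were higher than in WT cells, against 48.3% of all genes, with a median of 0.40. The part of macrophage genes in the values of the immediate early factors was not tested in any comparison.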

How the data were processed

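RNA sequencing data of 4 SAG-treated MEF libraries were used, 1 per group, so no test was made; leaving out replicates was not possible. The authors deposited FPKM per gene with exonic lengths, per the file headers. Per the submitters' processing notes cutadapt 1.9.1, HISAT2 2.0.1 and GRCm38 were used; the counting program, its annotation and its use of strand are not given in these sources. Libraries were stranded after polyA selection, per the labels' protocols. FPKM times length in kilobases sums to 1e+06 in each file.

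Of 55573 genes 55480 matched GENCODE M21; Cyr61, Ctgf, Mkl1 and Mkl2 were found through RefSeq synonyms. FPKM moves in steps of 1 fragment, so depth was the smallest at which 341 to 402 genes of at most 200 bases became whole (100% within rounding). Folds are ratios of deposited FPKM with 95% conditional Clopper-Pearson intervals. The code was run on simulated Poisson counts, which hold counting error only, so this run says nothing of differences between cultures. Log2 ratios use a pseudocount of 1 FPKM. A gene was measured at 1 FPKM or more in at least 1 library. The pseudocount shrinks ratios of low genes, and FPKM shows no change in total RNA. Python 3.11.15, pandas 2.3.3 and scipy 1.17.1 were used.

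Members and lists were chosen with earlier results of these data known. Named were all members, Dyrk2, the 2 highest and 2 lowest genes of each list per comparison, some of which are not reported here, and the 5 genes most like the median profile; others (Fosl2, Jund, Ccdc85b, partners) were chosen after their values were seen. Alternatives were 2 pseudocounts, 2 scalings, 2 filters, protein-coding genes only, and wild type as the control of siDyrk2.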

Additional observations from a re-analysis of the deposited data

How the results depend on the processing

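The medians of the immediate early factors kept their sign under the other pseudocounts, scalings and filters. They ranged from 0.09 to 0.16 in the knockout and from -0.74 to -0.37 with siNeg against wild type. With siDyrk2 against siNeg they ranged from 0.14 (pseudocount of 5 FPKM) to 0.36, where 0.30 was reported. As reported they cover the 8 measured genes. Without a filter Fosb and Egr2 enter, and a filter of 5 FPKM leaves out Fos. At least 1.5-fold higher in the knockout were 2 genes with a pseudocount of 0.1 FPKM, 2 with trimmed-mean scaling, 2 with median-ratio scaling and 0 with a pseudocount of 5 FPKM, against 1 as reported. With siNeg against wild type, a pseudocount of 5 FPKM gave a median of -0.37 and 0 genes at least 1.5-fold lower, against 6 as reported. Trimmed-mean scaling gave 5, and so did a filter of 5 FPKM, where Fos was no longer counted. A pseudocount of 0.1 FPKM gave 1 gene at least 2-fold lower, against 0. A pseudocount shrinks the ratios of low genes by its construction.

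With wild type as the control of siDyrk2, chosen after seeing the data, the median turned to -0.33, and so did the log2 ratios of Fos (-0.33), Fosl1 (-0.42), Jun (-0.55), Egr1 (-0.29), Atf3 (-0.38) and Nr4a1 (-0.25); the cause was not tested. Of 104 alternative log2 ratios of single genes, 89 stayed within the counting interval, 9 left it with the same sign and these 6 reversed.

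The share of all genes at least 1.5-fold different was 6.62%, 6.5% and 3.78% in the knockout, siDyrk2 and siNeg comparisons. It was 11.5%, 11.6% and 8.5% with a pseudocount of 0.1 FPKM and 1.57%, 1.69% and 0.593% with 5 FPKM. At 2-fold it was 1.78%, 1.54% and 0.928% as reported and 1.01%, 0.772% and 0.153% among protein-coding genes. The scalings moved the median of all genes by under 0.1. No paired analysis was possible because each group holds 1 library. Depth limits Fosb, with 21 to 74 fragments, and Egr2, with 0.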
